A study of Sus scrofa with 4 samples.

Results

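The genes described here are those that were highest in every 240 d library of longissimus dorsi (LD) muscle from Laiwu pigs, an indigenous breed with much fat inside its muscle. They were chosen from the values themselves. Each of the 3 libraries labelled 240 d had to lie above all 9 other libraries in FPKM (fragments per kilobase of transcript, scaled by library), the 240 d mean had to exceed 1.5 times the highest mean of the other ages, and the mean count at 240 d had to be at least 50. Of 22658 features, 9086 reached that count, 93 of these had all 3 libraries above the other 9, and 20 also passed the ratio (0.22% of the 9086). PDK4 and UCP3 were left out because genes that the study prints in its main lists were not taken up, which left 18 members.

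All pigs were castrated males of wild type genotype, reared under similar feeding and housing, with 3 pigs at each of 60, 120, 240 and 400 d of age, and each pig was sampled once. The libraries held between 9713813 and 13325327 counts, and those labelled 240 d between 11152068 and 11912809. The SD over the libraries of an age is the spread between 3 pigs. In whole muscle, fewer cells of a type and less RNA per cell cannot be told apart.

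LD is a back muscle made mostly of fast fibres, with fat cells, connective tissue, vessels and nerve between them. Its transcriptome follows growth and also the feeding and hormonal state of the animal. Glucocorticoids are among the hormones that act on muscle, and FKBP5, a co-chaperone of HSP90 in the receptor complex, is one of their well-known target genes. The other named members, apart from TMEM140 and TMEM161B, serve in lipid transport, coenzyme A synthesis, heme breakdown, RNA processing, ubiquitination, endosome traffic and the nuclear envelope.

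The ages used here are those of the sample labels, and they are open to doubt. The mean FPKM values printed with the study matched the libraries of other ages: the values headed 120 d matched the libraries labelled 240 d, with a median absolute log2 difference of 0.0199 over 1001 genes, against 0.4958 or more for the libraries of any other label. Likewise the values headed 60, 240 and 400 d matched the libraries labelled 400, 60 and 120 d. The choice of members does not change with this, since the same 3 libraries stand together, but every age given below could. With the other ages the members would be highest at 120 d, and the labelled 60, 120 and 400 d would stand for 240, 400 and 60 d. Changes from the labelled 60 or 120 d to 240 or 400 d would then run the other way in time. The read depths that the study prints went in part with the labels, if the libraries are numbered alike. Its deepest library was the first of 400 d, and library 1 labelled 400 d held the most counts, 13325327. Among those of 60 d the second was deepest in both, with 12159305 counts. At 120 and 240 d the deepest library was not the same. Which ages are right was not settled.

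The labelled tissue was checked by its marker genes. Desmin (DES) was between 2000 and 4558 FPKM and glycogen phosphorylase (PYGM) between 5137 and 9460 FPKM in the 12 libraries, whereas myoglobin (MB) was only between 2.45 and 11.4 FPKM. Skeletal actin (ACTA1) was listed at 0 in 7 of the 12 libraries and took between 5.64% and 8.57% of all counts in the other 5, among them all 3 libraries labelled 240 d. With CPM (counts scaled by the library total) on totals that leave ACTA1 out, 39 features met the rule, 14 of the 18 members among them. In none of the 10 lists of cell type markers did the summed FPKM of the 3 libraries labelled 240 d lie above all 9 others. These sums weigh abundant genes most, as ACTA1 in the muscle list, and only 65 of the 96 marker symbols were found.

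The member values stood out by small margins in most cases. The 240 d mean was between 1.51 and 4.46 times the next highest age mean, with a median of 1.73, and 5 of 18 members passed a ratio of 2. The lowest 240 d library stood between 1.01 and 1.47 times above the highest of the other 9, with a median of 1.12, and for 7 members this gap was under 1.1. At 240 d the highest library was typically 1.48 times the lowest, whereas the other 9 libraries spread over 2.54 times. For 17 of 18 members the range was wider among the 9 than among the 3. Such a range widens with the number of libraries, and that of the 9 also holds differences between 3 ages. No lower variability at 240 d is read from it. Since all of these values come from the rule or from the libraries it used, they are given without a test.

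**Figure D1:**
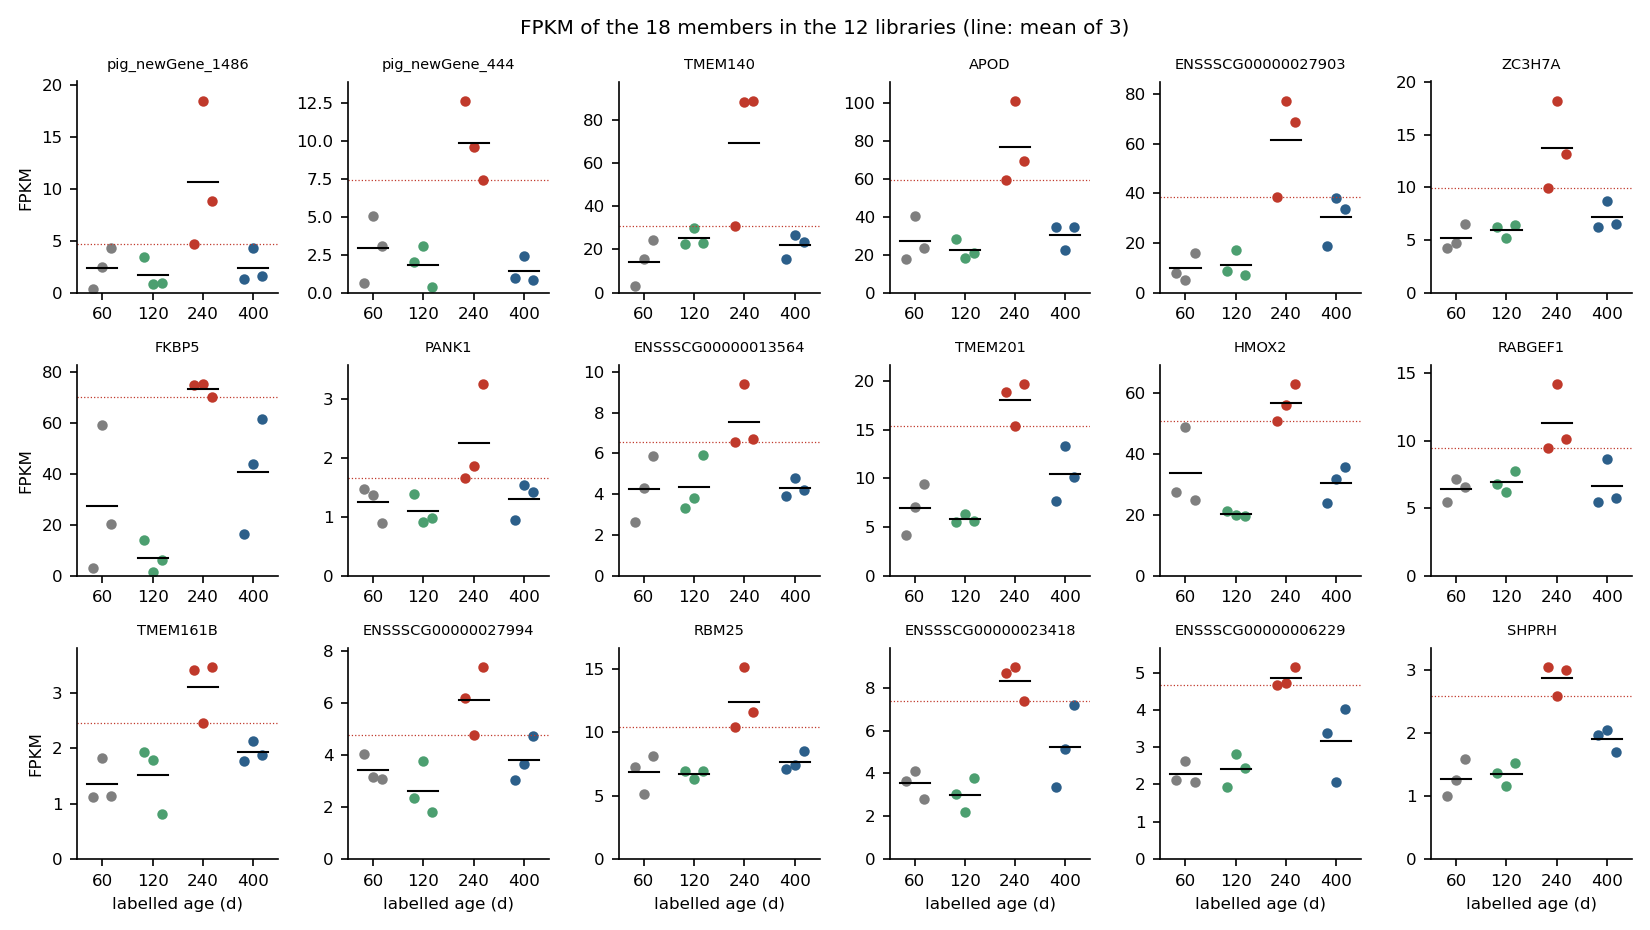
FPKM of each of the 18 members (panels, by falling ratio of the 240 d mean to the next highest age mean) in the 12 libraries, by labelled age in days; points are libraries, bars are means of 3, the dotted line is the lowest 240 d library, and each linear axis starts at 0. All 240 d points lie above all others in every panel by construction, and the gap is wide for APOD and narrow for ENSSSCG00000027903 and TMEM140.

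APOD encodes apolipoprotein D, a lipocalin that carries small lipids such as arachidonic acid and progesterone. It lies at chr13:142075108-142096426 on the plus strand (Sscrofa10.2, as for all positions here). APOD was 59.6, 101.2 and 69.5 FPKM in the 240 d libraries, against 34.6, 22.6 and 34.6 at 400 d. It was 17.97, 40.6 and 23.4 FPKM at 60 d and 28.1, 18.2 and 20.9 at 120 d. The 3 high libraries did not come near the other 9, whose highest value was the second library of 60 d. The mean of 240 d was 76.8 ± 21.7 FPKM (SD, n = 3), the next highest, of 400 d, was 30.6 ± 6.89, a ratio of 2.51, and APOD had the highest 240 d mean of all 18 members. APOD met the rule under every setting tried, each of the 12 libraries left out in turn included.

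FKBP5 (chr7:36370563-36478545, minus strand) was the steadiest member at 240 d and the most variable elsewhere. It was 74.8, 75.2 and 69.9 FPKM at 240 d, a mean of 73.3 ± 2.94 (SD, n = 3). At 400 d it was 16.4, 43.9 and 61.6 FPKM, and at 60 d 2.90, 59.1 and 20.3. At 120 d it was 13.9, 1.39 and 6.25 FPKM. The other 9 libraries thus spread over 44.2 times, with single pigs of 60 and 400 d close to the 240 d level and all 3 pigs of 120 d far below it. The ratio of the 240 d mean was 10.22 to 120 d, 2.67 to 60 d and 1.81 to 400 d, and the last fell to 1.39, under the threshold, without the first library of 400 d.

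HMOX2, the constitutive heme oxygenase, which opens the heme ring, was also lowest at 120 d. HMOX2 was 51.0, 56.1 and 63.0 FPKM at 240 d (chr3:38895256-38922993, minus strand). It was 27.6, 48.8 and 24.8 FPKM at 60 d, and 23.8, 31.7 and 35.9 at 400 d. The 120 d libraries were close together at 21.2, 19.96 and 19.5 FPKM. Only the second library of 60 d came within reach of the 240 d values, at a gap of 1.04 times, and without the third library of 60 d the ratio was 1.48 and HMOX2 no longer met the rule. HMOX2 overlaps NMRAL1 on the opposite strand, which was at 29.5 FPKM at 240 d and 34.2 at 60 d. The library kit does not keep strand, so fragments in the overlap cannot be assigned by it.

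PANK1, a pantothenate kinase that catalyses the first step of coenzyme A synthesis, was the least abundant member. PANK1 was 1.66, 1.87 and 3.26 FPKM at 240 d (chr14:110396501-110489204, minus strand), and the other 9 libraries lay between 0.899 and 1.54 FPKM. The third library of 240 d carried much of the mean: without it the ratio fell from 1.74 to 1.36 and PANK1 did not meet the rule. Its mean count at 240 d was 92.3.

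ZC3H7A, a CCCH zinc-finger protein, was 9.96, 18.2 and 13.1 FPKM at 240 d and between 4.24 and 8.71 FPKM in the other 9, a ratio of 1.92. RBM25, a splicing regulator at chr7:102193922-102258991, was 10.4, 15.2 and 11.6 FPKM at 240 d and between 5.15 and 8.56 elsewhere, a ratio of 1.61. SHPRH, an E3 ubiquitin ligase of DNA damage tolerance at chr1:21856672-21941130, was 3.05, 2.59 and 3.005 FPKM at 240 d and at most 2.05 elsewhere. In these 3 genes there was a gap between the lowest 240 d library and the highest other, of 1.14 times for ZC3H7A, 1.22 for RBM25 and 1.26 for SHPRH. SHPRH was nonetheless the member closest to the ratio threshold, at 1.51, on 2.88 ± 0.254 FPKM (SD, n = 3) for 240 d and 1.91 ± 0.178 for the next age, 400 d.

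RABGEF1, an exchange factor for the early endosome GTPase RAB5, was 9.49, 14.2 and 10.18 FPKM at 240 d (chr3:16560241-16629089, minus strand). The other ages were almost level, with means of 6.42, 6.92 and 6.63 FPKM at 60, 120 and 400 d. RABGEF1 had the smallest spread among the other 9 libraries, 1.58 times, but the lowest 240 d library was only 1.1 times the highest of them, and without library 2 of 240 d the ratio was 1.42 and RABGEF1 did not meet the rule.

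The 3 transmembrane proteins among the members differed in pattern. TMEM140 (ENSSSCG00000016530, chr18:14940691-14955835), whose symbol comes from the study's own list of names and not from the gene name table, was 31.0, 88.3 and 88.8 FPKM at 240 d. Its first 240 d library was thus close to the second library of 120 d at 29.9 FPKM, while the other 2 stood far above any library of another age. TMEM201, an inner nuclear membrane protein, was 18.9, 15.4 and 19.7 FPKM at 240 d with a mean of 17.99, and its means of the other ages were 5.85 at 120 d, 6.92 at 60 d and 10.4 at 400 d. TMEM161B was 3.42, 2.46 and 3.46 FPKM at 240 d and at most 2.12 FPKM in any other library.

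Of the 18 members, 7 carry no gene symbol in the tables used, 2 of them newly assembled transcripts and 5 Ensembl genes. The highest ratio of all, 4.46, belonged to pig_newGene_1486 (chr18:18983034-19029357, plus strand), which lies between MKLN1 and TSGA13 and overlaps no annotated gene. It was 4.67, 18.5 and 8.85 FPKM at 240 d, and the third library of 60 d at 4.33 and the second library of 400 d at 4.30 were just below the lowest of these. The wide spread at 240 d, an SD of 7.08 on a mean of 10.7 FPKM, makes its ratio the least certain (log2 ratio 2.16 ± 0.88, SE). On TMM-scaled CPM its libraries overlapped and it did not meet the rule.

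The second transcript, pig_newGene_444 (chr10:72937879-72940766, minus strand), was 12.7, 9.59 and 7.41 FPKM at 240 d and between 0.392 and 5.04 FPKM elsewhere. Together with APOD it had the widest gap of all members, 1.47 times, from 99.7 counts on average at 240 d. It overlaps another newly assembled transcript on the opposite strand, pig_newGene_415, whose mean was also highest at 240 d, at 1.55 FPKM against 0.495 or less at the other ages. The nearest annotated gene is KLF6, 51478 bases away, which was highest at 120 d, at 15.8 FPKM.

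ENSSSCG00000027903 (chr2:61369000-61556036, minus strand) was the most abundant unnamed member, at 38.5, 77.4 and 68.6 FPKM at 240 d. It was 19.0, 38.3 and 33.7 FPKM at 400 d, and between 5.28 and 17.3 FPKM in the 6 libraries of 60 and 120 d. The values of 400 d therefore stood between those of 240 d and those of 60 and 120 d, and the lowest 240 d library exceeded the highest 400 d library by only 1.01 times. Inside its span lies ENSSSCG00000027013 on the opposite strand, whose mean was 22.7 FPKM in the 240 d group, 8.95 in that of 400 d and 5.25 and 4.92 in those of 60 and 120 d, so it too was highest in the 240 d group. Shared fragments cannot be told apart there.

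The remaining 4 unnamed genes were below 10 FPKM. ENSSSCG00000027994 (scaffold GL894016.1) lies 55 bases from CPT1B, the muscle carnitine palmitoyltransferase of fatty acid import into mitochondria, on the same strand. It was 6.197, 4.79 and 7.39 FPKM at 240 d and at most 4.74 elsewhere, and CPT1B itself had means of 53.4 FPKM at 240 d and 28.9 to 37.9 at the other ages. ENSSSCG00000013564 lies 30456 bases from INSR, the insulin receptor, on the opposite strand, and was 6.56, 9.41 and 6.72 FPKM at 240 d and at most 5.92 elsewhere. ENSSSCG00000023418, 2533 bases before FNBP4 on the same strand, was 8.67, 8.96 and 7.37 FPKM at 240 d, with the third library of 400 d close behind at 7.19. ENSSSCG00000006229 (scaffold GL893631.2) was nearly constant at 240 d, at 4.68, 4.72 and 5.15 FPKM, and at most 4.04 in the other libraries.

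The threshold on the ratio cut through a continuum. Just inside it were SHPRH at 1.51, ENSSSCG00000006229 at 1.53, ENSSSCG00000023418 at 1.59, and RBM25 and ENSSSCG00000027994 at 1.61. Just outside it, with all 3 libraries above the other 9, were MYSM1 at 1.49, ENSSSCG00000010844 and TBX4 at 1.48, MED15 at 1.46 and GALC at 1.45. Another 106 features passed the ratio but had overlapping libraries. The same rule picked 119 of 9012 features for 60 d (1.32%), 55 of 9108 for 120 d (0.604%) and 83 of 8999 for 400 d (0.922%), so that 240 d had the fewest.

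**Figure D2:**
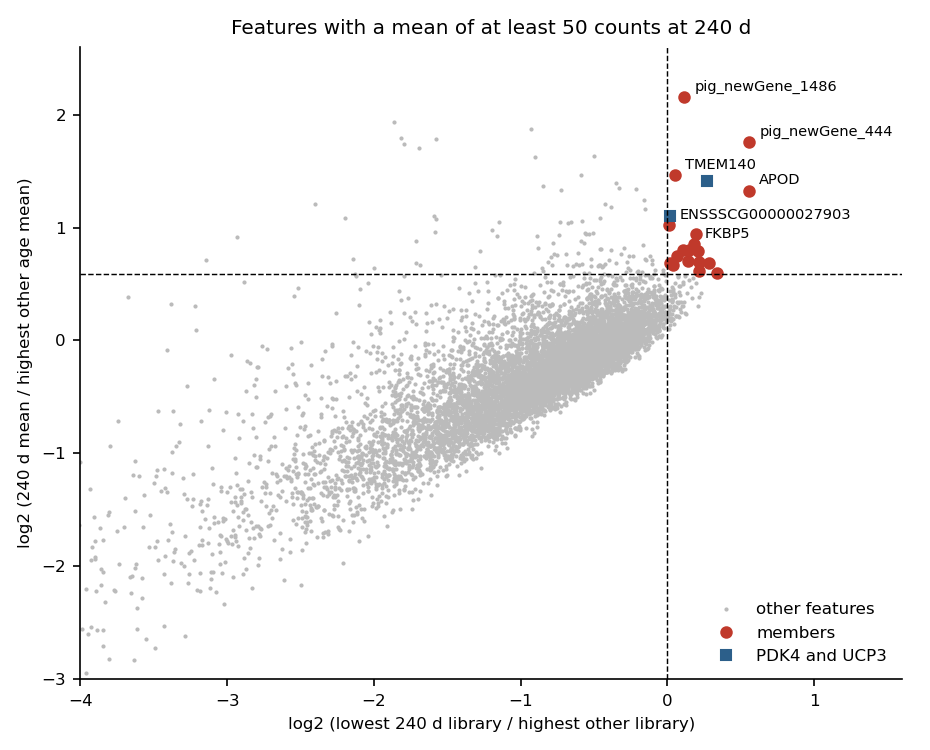
The features that reached 50 counts on average at 240 d, by the log2 ratio of the lowest 240 d library to the highest other library (horizontal) and of the 240 d mean to the highest other age mean (vertical); 9006 of 9086 lie within the axes. Dashed lines are the limits of the rule; the members (red circles) fill the sparse upper right corner beside PDK4 and UCP3 (blue squares), and most of them sit close to the limits.

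The number depended on single libraries. Leaving out a library removes a condition and also changes an age mean. Without the first library of 240 d 111 features met the rule, without the second 44 and without the third 36. Without the second or the third library of 400 d the numbers were 46 and 41, and without the third library of 60 d 33. Between 14 and 18 of the 18 members remained in each of the 12 cases. On TMM-scaled CPM in place of FPKM, 19 features met the rule, and 12 of them were members. Those lost were pig_newGene_1486, ENSSSCG00000013564 and ENSSSCG00000027994, whose libraries overlapped, and TMEM161B, RBM25 and SHPRH, whose ratios fell to between 1.34 and 1.49.

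Within the 240 d group the second library was highest for 9 members, the third for 7 and the first for 2, and the first was lowest for 11. Expressed against each member's own 240 d mean, the median level was 88.3%, 105% and 99.8% in the 3 libraries. Outside 240 d the median level was 60.9% and 57.9% in libraries 2 and 3 of 400 d and 44% in library 1. It was 34.8%, 51.4% and 41.7% at 60 d and 37.8%, 38.9% and 33.6% at 120 d. For 12 members 400 d was the next highest age, for 3 it was 60 d and for 3 it was 120 d, and the highest library outside 240 d was library 2 or library 3 of 400 d for 12 of 18. The lowest age was 120 d for 9 members, 60 d for 8 and 400 d for 1.

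**Figure D3:**
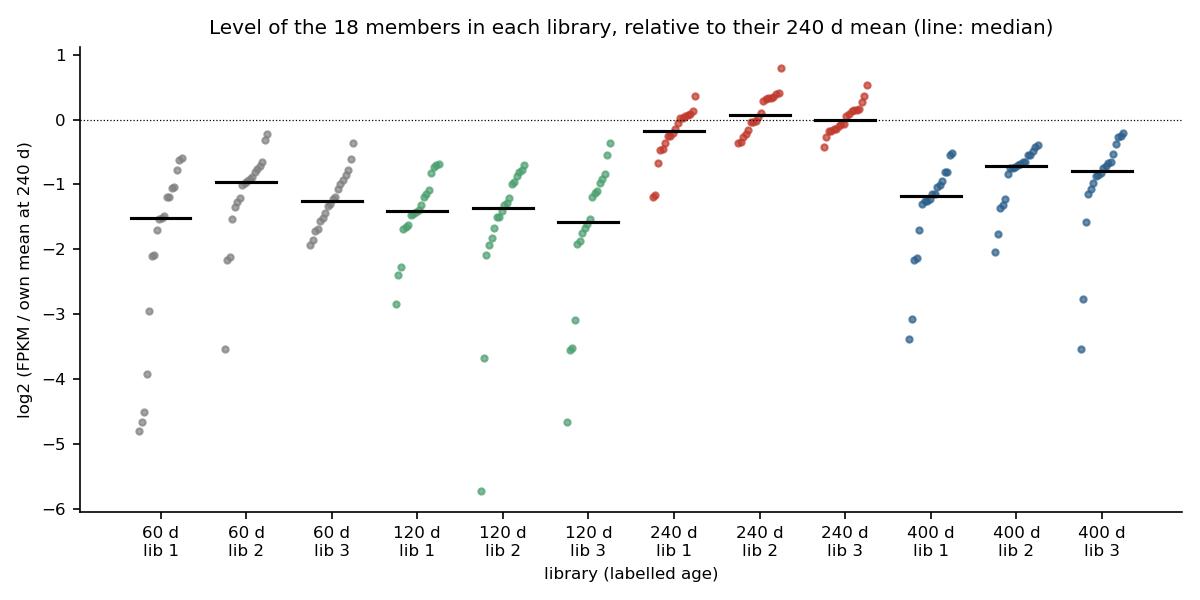
Level of each member in each of the 12 libraries as the log2 ratio of its FPKM to its own mean at 240 d (points, 18 per library, sorted; bars are medians), by labelled age. The medians of the 3 libraries of 240 d lie near 0, those of libraries 2 and 3 of 400 d at -0.72 and -0.79, and the 120 d medians between -1.36 and -1.57.

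The median fold of 240 d over 400 d was 1.75, over 60 d 2.32 and over 120 d 2.54. At 12 of 18 members the 240 d mean was more than 2 times that of both 60 and 120 d. Over all 13314 features tested in the 12 libraries, edgeR's quasi-likelihood test called 0 features between 400 and 240 d in either direction (0% and 0%), while 1176 had an unadjusted p under 0.05 and DESeq2 called 66.

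Whether the members differ between the ages other than 240 d was tested on the counts of the 9 libraries of 60, 120 and 400 d, with edgeR's quasi-likelihood test and Benjamini-Hochberg adjustment over all 13217 features. The rule used these libraries too, since it required them to lie below the 240 d values and capped their age means through the ratio. The members' calls and p-values are therefore not comparable with the shares over all features. These shares are given for scale only, and nothing about the members is read from the calls. Between 60 and 120 d 0 of 18 members passed a false discovery rate of 0.05, where 0% of all features rose and 0% fell, and 1 member, HMOX2, had an unadjusted p under 0.05, as did 1250 of all features. DESeq2 called 0 members and 104 features there. The log2 change of HMOX2 was -0.74 ± 0.26 (SE) with an adjusted p of 0.468.

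From 120 to 400 d 0 of 18 members passed, against 3.27% of all features that rose and 5.26% that fell. At an unadjusted p under 0.05 there were 5 members, where 4009 of all features (30.3%) were, and DESeq2 called 1 member and 2345 features. Of the members' log2 changes 15 of 18 were above 0, with a median of 0.44, where the median over all features was 0.007, and nothing is read from this, since the same libraries entered the choice of members. The largest was that of FKBP5, 2.598 ± 1.03 (SE, adjusted p = 0.123), then ENSSSCG00000027903 at 1.55 ± 0.48 (adjusted p = 0.067) and TMEM201 at 0.84 ± 0.29 (adjusted p = 0.0897). DESeq2, the fit of all 12 libraries, the fit of the pair of ages alone and the fit without the third library of 60 d called ENSSSCG00000027903, and the fit of the pair alone and the fit without the first library of 60 d called TMEM201.

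From 60 to 400 d 1 of 18 members rose and 0 fell, against 8.85% and 10.5% of all features. The member was ENSSSCG00000027903, with a log2 change of 1.56 ± 0.48 (SE, adjusted p = 0.0467). This call was lost in 6 of the 9 fits without 1 library, namely without the first or second of 60 d, the first of 120 d or any of 400 d, with adjusted p-values from 0.0532 to 0.144. The other 17 members did not pass. SHPRH was called with all 12 libraries in the fit (adjusted p = 0.049) and without library 3 of 60 d (adjusted p = 0.0412). Their changes ran from -1.11 for pig_newGene_444 to 0.59 for TMEM201, and SHPRH came nearest, at 0.56 ± 0.21 (SE, adjusted p = 0.0793). Over all members the median was 0.46, with 15 of 18 above 0, and over all features -0.07. Nothing is read from this or from the calls either, since the same libraries entered the choice of members.

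**Figure D4:**
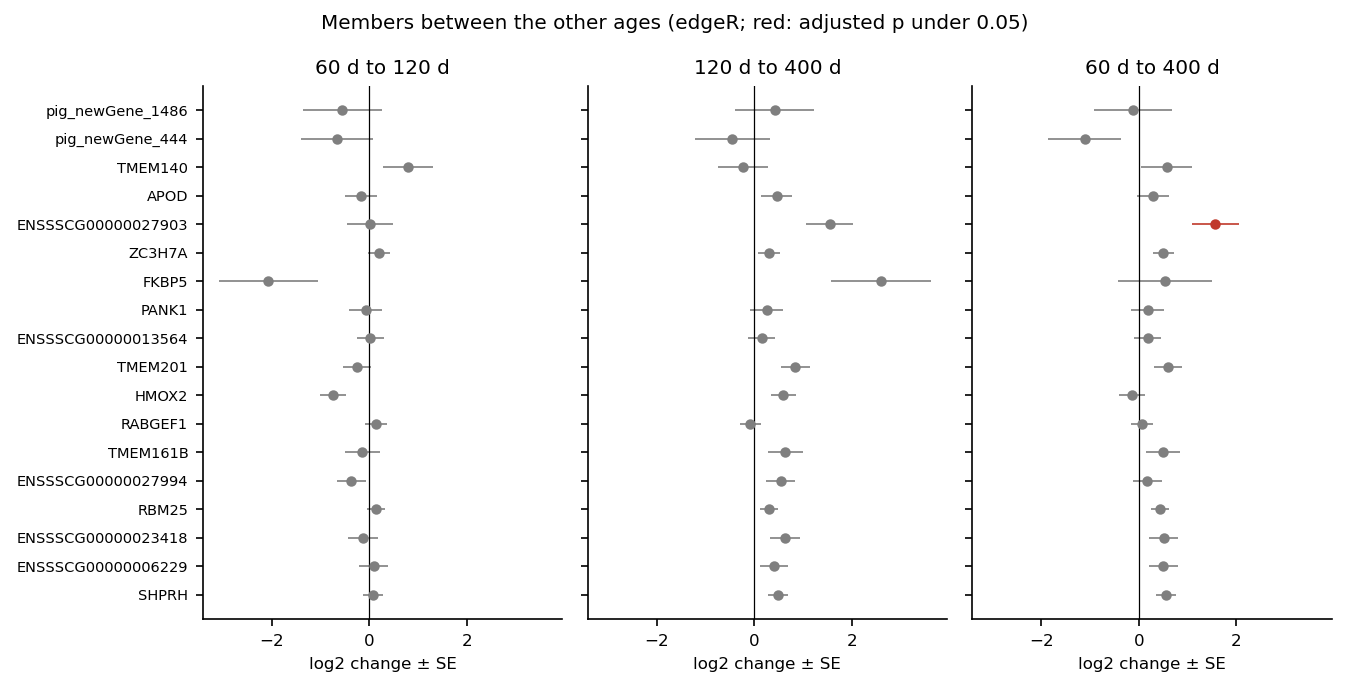
Log2 change of each member between 60, 120 and 400 d with its SE, from edgeR on the 9 libraries of these ages; red marks an adjusted p under 0.05. Only ENSSSCG00000027903 from 60 to 400 d is red, at 1.56, and FKBP5 has the widest error bars, with a log2 change of -2.07 from 60 to 120 d and 2.598 from 120 to 400 d.

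Of 17 lists of pathway genes, only that of glucocorticoid response held a member, FKBP5. The list of PPAR targets and coactivators held PDK4 and UCP3, which met the rule but were left out. The glucocorticoid list did not have the most calls. From 60 to 240 d edgeR called 5 of 19 FOXO and atrophy genes as higher and 1 as lower, and 0 and 9 of 12 interferon-response genes. It called 5 and 0 of 20 autophagy and lysosome genes, and 1 and 6 of 16 heat-shock and unfolded-protein genes. Of 28 glucose and glycogen genes it called 1 and 6. Over all features 5.51% were called as higher and 5.83% as lower. The lists were not tested as sets. The glucocorticoid list has 15 symbols, FKBP5 included, and only 8 of its other genes could be tested across the 12 libraries with edgeR. Between 60 and 240 d 0 of 8 passed, where 5.51% of all features rose and 5.83% fell, and 4 had an unadjusted p under 0.05, as did 30.7% of all features. DESeq2 called AMPD3 as higher and SGK1 as lower at 240 d there, and 17.7% of all features. Between 120 and 240 d 1 of 8 rose and 0 fell, where 2.21% of all features rose and 2.91% fell, and DESeq2 called 2 of 8 and 1767 of all. Between 400 and 240 d 0 of 8 passed, 1 had an unadjusted p under 0.05 and DESeq2 called 0. The gene that edgeR called as higher at 240 d than at 120 d was AMPD3, an AMP deaminase of purine turnover. Its means were 1.69 FPKM at 120 d and 20.8 at 240 d, with a log2 change of 3.91 ± 0.97 (SE, adjusted p = 0.0431). AMPD3 was 5.81, 40.3 and 16.3 FPKM in the 240 d libraries. Those of 400 d, at 5.20, 17.5 and 6.30 FPKM, overlapped with them. AMPD3 lost the call without any of 8 libraries (library 2 of 60 d, each of 120 d, libraries 2 and 3 of 240 d, libraries 1 and 3 of 400 d), with adjusted p-values from 0.0517 to 0.134. The median log2 change of the 8 genes was 0.38 from 60 d, 0.26 from 120 d and -0.13 from 400 d, where that of all features was -0.04, 0.02 and 0.03. The receptor NR3C1 was at 13.31, 14.6, 16.1 and 19.4 FPKM at 60, 120, 240 and 400 d.

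In the connective tissue list, 9 of 10 markers were found, and their summed FPKM lay between 1245 and 2127 in the 240 d libraries. It was between 452.8 and 1348 in those of 400 d, which overlap with 240 d, and between 3218 and 4643 in those of 120 d. At 60 d it was 10414 in library 1, and 2361 and 2514 in libraries 2 and 3. These 9 markers had 16 features, so some genes counted more than 1 time. All 16 had a higher fitted level at 240 d than at 400 d (median log2 difference 0.77, 0.03 over all features). EdgeR called 0 of them there, and 3 had an unadjusted p under 0.05. Only 2 of 16 were higher at 240 d than at 60 d or at 120 d (medians -1.15 and -0.90, over all features -0.04 and 0.02). EdgeR called 1 of 16 as lower than at 60 d, where 5.83% of all features fell, and 0 of 16 from 120 d. The 6 adipocyte markers found of 10 summed to between 91.8 and 147.6 FPKM in the 240 d libraries. In the others the sum lay between 56.5 and 141.0 (400 d), 101.0 and 313.6 (60 d), and 133.1 and 228.6 (120 d). By gene, 4 of 6 were higher at 240 d in each of the 3 comparisons, with median log2 differences of 0.13 from 60 d, 0.50 from 120 d and 0.35 from 400 d. EdgeR called 0 of 6 in each of them. No marker of either list was at 0 in all libraries. APOD is also expressed by fibroblasts and adipose tissue, and the part of these cells in its values was not tested.

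PDK4, the kinase that restrains pyruvate oxidation, and UCP3, a mitochondrial carrier of muscle, met the same rule. PDK4 was 508.8, 1072 and 616.6 FPKM at 240 d and at most 421.9 elsewhere, and UCP3 was 71.5, 147.7 and 121.0 FPKM and at most 70.5, with 400 d as the next highest age in both, as in 12 of the 18 members. The doubt about the ages holds for both.

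The members shared little in structure or place. They lay on 12 chromosomes or scaffolds, and 3 of 18 (16.7%) lay on unplaced scaffolds, against 6.93% of the 9086 features with enough counts. Their median transcript length was 3136 bases against 3063, and their median span on the genome 41645 against 24047 bases. Newly assembled transcripts made up 11.1% against 5.91%, and features without a symbol 38.9% against 27.7%. The median 240 d mean was 10.98 FPKM in the members and 7.95 in all 9086.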

How the data were processed

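Total RNA of LD muscle was sequenced as paired ends, and per the study's methods clean reads were mapped to Sscrofa10.2 with TopHat2; the submitters' processing notes name Bowtie 0.12.2, Cufflinks and the build mm8 instead. Each file holds the 3 libraries of 1 age. The authors deposited whole-number counts per gene, not normalized, and the authors' FPKM from Cufflinks. The deposited FPKM carry a factor per library, since FPKM times length per count was between 0.895 and 1.1 times that expected from the total count. Counts of 3, the floor, were worth 0.225 to 0.309 CPM.

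The rule was applied to FPKM, with counts for the minimum of 50. Differences between ages were tested with edgeR 4.0.16 (quasi-likelihood, TMM, features that averaged 10 counts or more), with DESeq2 1.42.0 as the alternative, and the scripts were tested on simulated data. The 9 libraries of 60, 120 and 400 d formed 1 fit, and all 12 formed the fit for the gene lists, comparisons added after the data were seen. SEs of log2 ratios of FPKM combine the SDs of both ages. Names came from the gene name table (11472 features) and the study's own lists (492). Of the 56 symbols of the study's printed tables, 7 had no identifier and could not be left out by it. Members, lists and tests were chosen with earlier results of these data known. Named were all members with a symbol, those on a list, those that passed a test, the 5 most abundant, and up to 5 features on each side of the ratio threshold; the unnamed members are described as well. Sequences and promoter motifs were not analysed here. Random sets of libraries were not drawn.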

Additional observations from a re-analysis of the deposited data

How the results depend on the processing

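The number of genes that met the rule, 18, stayed within 1.5 times with TMM-scaled CPM and with minimum counts of 20 or 100; it was 5 with a ratio of 2, 55 with a lower ratio limit, 39 with ACTA1 left out of CPM (chosen after seeing the data) and 16 to 111 when 1 library was left out, which drops a condition and changes an age mean. By the same rule on TMM-scaled CPM, chosen after seeing the data, 89, 55, 21 and 103 features were found for 60, 120, 240 and 400 d. The median log2 ratio of 0.79 lay between 0.70 and 0.80 under 2 pseudocounts, TMM scaling and medians, and between 0.66 and 0.84 without 1 library. Of the single members' log2 ratios under these settings, 273 moved by less than the SD between the 240 d libraries and 15 by more. None changed sign, but the rule fixes the sign under every setting on FPKM, and only TMM scaling could have changed it.

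Members called between 120 and 400 d were 0; they were 1 with DESeq2, 1 with all 12 libraries in the fit, 2 with the 6 libraries of the pair and 0 to 1 without 1 library. Members called between 60 and 400 d were 1; they were 2 with all 12 libraries, 0 with the 6 of the pair, 0 at a false discovery rate of 0.01 and a log2 change of 1, and 0 to 2 without 1 library. Between 60 and 120 d they were 0 throughout. The cause was not tested. Over all features, calls between 60 and 120 d numbered 0 (104 with DESeq2, 3 without a filter, 1 with DESeq2 size factors, 1 with at least 50 counts, 0 to 12 without 1 library), between 120 and 400 d 1127 (2345 with DESeq2, 1847 with 12 libraries, 2025 with 6, 6 at the stricter limits, 10 to 1914 without 1 library) and between 60 and 400 d 2562 (489 at the stricter limits, 743 to 2600 without 1 library). Of the 8 glucocorticoid-response genes, those called between 60 and 240 d were 0 (2 with DESeq2, 1 without a filter, 1 with at least 50 counts, 0 to 1 without 1 library), between 120 and 240 d 1 (2 with DESeq2, 0 to 2 without 1 library) and between 400 and 240 d 0 throughout.

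No paired analysis was possible because each pig was sampled once, so that no pig was followed across ages. The labels give each age as 1 sample. Depth limits the least abundant members most, with 55 counts for PANK1 and 59 for TMEM161B in their lowest 240 d libraries.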
